A study of Mus musculus with 8 samples.

Results

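Ferritins and cellular iron handling were followed here through 10 genes, chosen by symbol from a fixed list, in the 25239 gene symbols of a count table from mouse skull cells. All 10 were present, and all 10 were expressed enough to be tested. They are the ferritin subunits Fth1 and Ftl1, the importers and exporter Tfrc, Slc11a1, Slc11a2 and Slc40a1, the regulators Hfe, Ireb2 and Aco1, and the ferroxidase Cp. The cells are described as primary osteoblasts from the calvaria, the bony cap of the skull. There were 4 libraries of the control group, labelled WT and described as littermates, and 4 of mice labelled KO(OSX-SphK2), each numbered 1 to 4. The label is read here as a deletion of Sphk2, sphingosine kinase 2, driven by Osx (osterix, gene Sp7), a transcription factor of bone-forming cells. Age, sex, strain, the deleted exons, the number of animals behind a library and whether controls carry the driver are not stated. The p-values thus rest on library-to-library spread alone, part of which may be technical.

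Iron enters most cells bound to transferrin through the transferrin receptor, is stored inside ferritin shells and leaves through ferroportin, the only known cellular iron exporter of mammals. Macrophages recover large amounts of iron from old red cells and hand it back through ferroportin. The iron regulatory proteins, encoded by Aco1 and Ireb2, bind a hairpin called the iron-responsive element when iron is scarce. Bound near the start of a ferritin or ferroportin mRNA they block its translation, and bound in the tail of the transferrin receptor mRNA they protect it from decay. The counts below measure mRNA and not protein, so the first of these controls is outside what they show.

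The hairpins are printed because hairpins of this kind are the known contact points of the iron regulatory proteins. A match was found in 4 of the members. The motif searched was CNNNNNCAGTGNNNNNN on the transcript strand, with all 5 bases before the loop able to pair with the 5 after it. Each sequence is 30 bases of a GENCODE M21 transcript, 5′ to 3′, and capitals mark the bulged C and the 6 bases of the loop.
Fth1, 5′ untranslated region, chr19:9982732-9982761, plus strand: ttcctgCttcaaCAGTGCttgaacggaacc
Ftl1, 5′ untranslated region, chr7:45459778-45459807, minus strand: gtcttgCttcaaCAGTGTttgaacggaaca
Slc40a1, 5′ untranslated region, chr1:45925464-45925493, minus strand: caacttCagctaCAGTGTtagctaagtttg
Tfrc, 3′ untranslated region, element 1, chr16:32631219-32631248, plus strand: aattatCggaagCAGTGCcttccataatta
Tfrc, 3′ untranslated region, element 2, chr16:32631598-32631627, plus strand: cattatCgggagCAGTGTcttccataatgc
Tfrc, 3′ untranslated region, element 3, chr16:32631663-32631692, plus strand: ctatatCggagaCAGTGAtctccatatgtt
Tfrc, 3′ untranslated region, element 4, chr16:32631710-32631739, plus strand: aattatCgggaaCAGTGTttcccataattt
The motif was found in a 5′ untranslated region of 31 of 20916 coding genes (0.148%) and in a 3′ region of 129 of 21045 (0.613%), over regions of any length. The ferritin hairpins shared 16 of the 17 bases of the motif and differed at base 12 of it, the last of the loop. A match is a run of letters and not a measured binding site, and the 6 other members had no match to these letters in their untranslated regions. Slc11a2 is among these 6 although it has an isoform with the iron-responsive element, so the lack of a match does not show absence.

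The libraries numbered 4 stood apart from the rest in both groups, so the members are given with and without them; leaving them out is a choice made with earlier results known. Total counts ran from 14347495 to 19065421. Summed over fixed marker lists, 10 osteoclast genes stood at 10222 CPM (counts per megaread of the scaled library) for control 4 and 6748 CPM for knockout-labelled 4, against 172 to 278 CPM in the other 6. Mmp9 led these sums of number 4, at 5067 and 3923 CPM. Nfatc1 of the same list, at 99.6 CPM in knockout-labelled 4, lay within the 96.0 to 105 CPM of numbers 1 to 3. The 15 macrophage markers summed to 32146 to 54210 CPM in the 8 libraries and were led by Lyz2, at 16416 to 34460 CPM. The 12 osteoblast markers summed to 7710 to 16881 CPM in numbers 1 to 3 and to 6432 and 4157 CPM in control 4 and knockout-labelled 4, so macrophage transcripts were abundant in cultures labelled as osteoblasts. Within the osteoblast list Spp1 went against the sum, at 1860 and 1472 CPM in number 4 against 528 to 1101 CPM in numbers 1 to 3. The erythroid list summed to at most 1.63 CPM and the neutrophil list to at most 3.64 CPM, and 8 erythroid genes, among them the 4 haemoglobin genes, had no count in any library. In such bulk samples, fewer cells of a type and less RNA per cell cannot be told apart. Sphk2 itself did not separate the groups. Controls had 64.2 to 133.8 CPM of it and knockout-labelled libraries 69.7 to 131.1 CPM (log2 fold change −0.05, SE 0.30, edgeR adjusted p = 0.9999), so the labels are not checked by it.

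**Figure D1:**
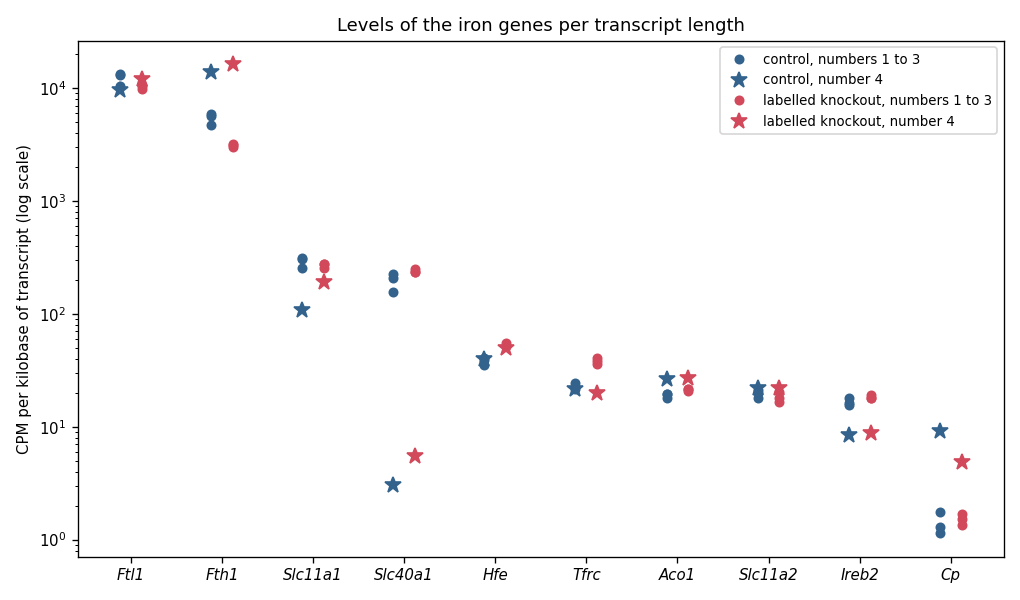
Levels of the 10 members per kilobase of principal transcript, on a log axis, with 1 point per library, circles for numbers 1 to 3 and stars for number 4. The ferritins lie between 2999 and 16324, and Slc40a1 lies at 157 to 248 in numbers 1 to 3 and at 3.07 and 5.49 in number 4.

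Ferritin mRNA was among the most abundant in these cells. Fth1 and Ftl1 together took 1.43% to 2.13% of all counts in numbers 1 to 3, and 2.94% and 3.44% in control 4 and knockout-labelled 4. Ftl1 ranked at place 3 or 4 among all genes in each library, and Fth1 between places 2 and 14. Per kilobase of principal transcript, Ftl1 had a median of 10599 CPM over the 8 libraries (range 9672 to 13306) and Fth1 of 5187 CPM (2999 to 16324). The next members were Slc11a1 at a median of 267 CPM per kilobase (108 to 312) and Slc40a1 at 218 CPM (3.07 to 248). Hfe followed at a median of 45.1 CPM per kilobase (35.2 to 55.1). Below it lay Tfrc (range 19.8 to 40.3, overlapping that of Hfe), Aco1 (18.1 to 27.3), Slc11a2 (16.6 to 22.2) and Ireb2 (8.51 to 19.1). Each of these ranges overlapped the next, and so did those of Ftl1 and Fth1 and of Slc11a1 and Slc40a1, so the ranges over libraries do not separate these neighbours. Within each single library, however, Slc11a1 was above Slc40a1 and Hfe above Tfrc. The other neighbours with overlapping ranges changed order between libraries. Cp had the lowest median, at 1.61 CPM per kilobase (1.14 to 9.23).

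Heavy-chain ferritin, Fth1, was lower in the labelled knockout of pairs 1 to 3 and higher in that of pair 4. Its product carries the ferroxidase site that turns ferrous iron into the stored form. Fth1 spans bases 9980598 to 9985098 of chromosome 19 (GRCm38, plus strand). Fth1 measured 8487, 7011, 8754 and 20566.5 CPM across controls 1 to 4, against 4684, 4480, 4811 and 24387 CPM across knockout-labelled 1 to 4. The 3 lowest libraries were thus knockout-labelled 1 to 3, the controls 1 to 3 lay above them without overlap, and both libraries numbered 4 were the highest. The sum of the osteoclast list was also highest in number 4 and that of the osteoblast list lowest, though not every gene of these lists went with its sum. Their part in the Fth1 values was not tested.

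With all 8 libraries Fth1 did not pass between genotypes (log2 fold change −0.22, SE 0.66, 95% interval −1.76 to 1.31, edgeR adjusted p = 0.9999). With the library number as a block the value was −0.53 (SE 0.20, adjusted p = 0.212). In numbers 1 to 3 alone Fth1 fell by 0.79 on the log2 scale (SE 0.10, edgeR adjusted p = 0.00132), from 8084 ± 939 CPM (SD, n = 3) to 4658 ± 167 CPM (SD, n = 3), which is 0.576 of the control level. Within pairs, knockout-labelled over control was 0.552, 0.639 and 0.55 in pairs 1 to 3 and 1.19 in pair 4. Whether pair 4 differs from the others in its genotype effect was not tested, since it is a single pair.

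Light-chain ferritin, Ftl1, which helps to form the iron core, varied far less. It lies on chromosome 7 from 45457944 to 45459884. Ftl1 measured 12588, 10036, 12880 and 9362 CPM across controls 1 to 4, against 10174, 9474, 10346 and 11531 CPM across knockout-labelled 1 to 4. The groups overlapped, also within numbers 1 to 3. The log2 fold change was −0.11 (SE 0.16, edgeR adjusted p = 0.9999), and −0.24 (SE 0.11, adjusted p = 0.181) in numbers 1 to 3, where the block gave −0.23 (SE 0.07, adjusted p = 0.0280). Of the 919 windows of 50 bases along its transcript, 833 (90.6%) also occur in transcripts of 17 other annotated genes, against 4.01% for Fth1, so the count of Ftl1 is uncertain. Gm10252 also overlaps its exons on the opposite strand, and no strand setting for the counting is stated.

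The balance of the subunits followed the same division. Read for read, the ratio of Fth1 to Ftl1 was 0.674, 0.699 and 0.68 across controls 1 to 3 and 0.46, 0.473 and 0.465 in knockout-labelled 1 to 3, with no overlap, but 2.20 and 2.12 in control 4 and knockout-labelled 4. Per kilobase the order of the subunits in numbers 1 to 3 was the same for each of 3 lengths tried, with Fth1 at 0.178 to 0.728 of Ftl1. In number 4 it turned with the lengths taken. The ratios there were 1.42 and 1.37 with principal transcripts of 1494 bases for Fth1 and 968 for Ftl1, and 2.29 and 2.20 with the shorter Fth1 transcript of 929 bases. They were 0.849 and 0.817 with all annotated exons of both genes, 3469 and 1340 bases. Each of these ratios rests on the Ftl1 count, whose uncertainty from shared sequence a change of length does not address.

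**Figure D2:**
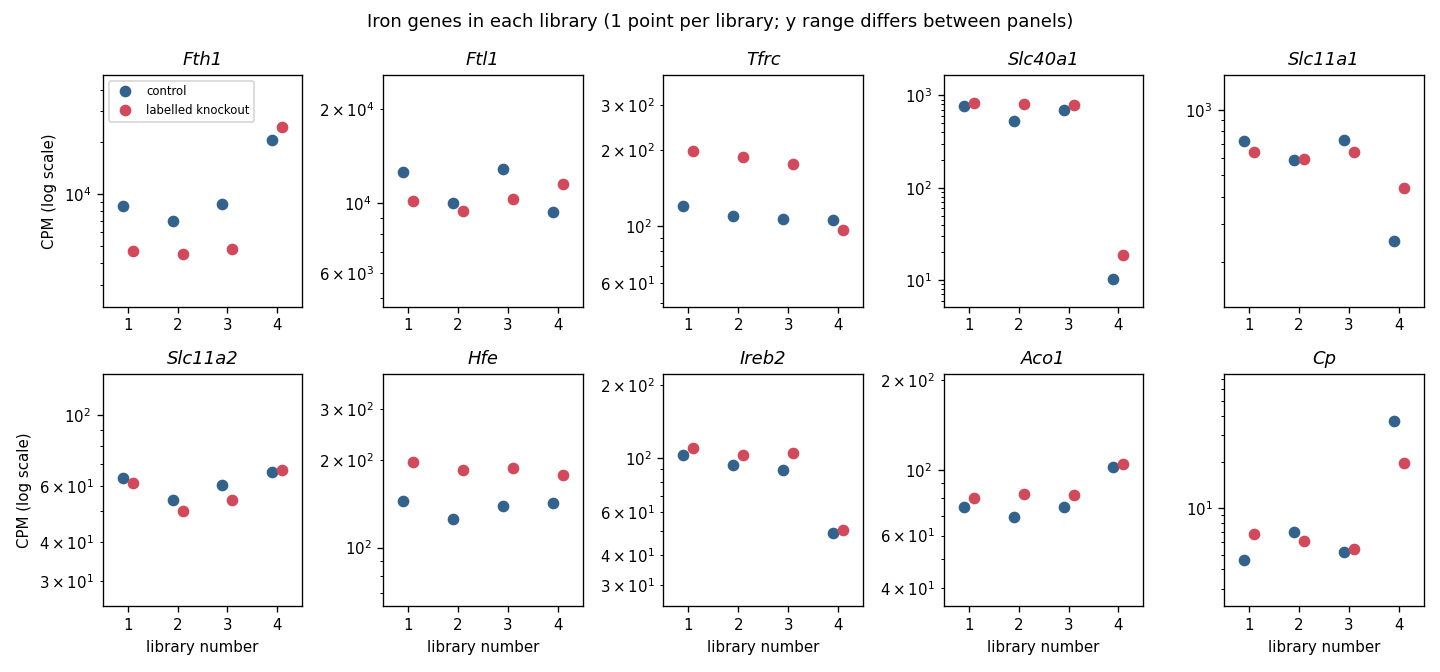
Level of each member in CPM, on a log axis that differs between panels, by library number, with control in blue and labelled knockout in red. Tfrc and Hfe lie higher in red for numbers 1 to 3 (Tfrc at 176 to 197 CPM against 107 to 119.9 CPM), and in number 4 only Hfe keeps that gap.

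The transferrin receptor, Tfrc, differed in the opposite direction to Fth1 in each of the 4 pairs. It brings in transferrin-bound iron and is high in dividing cells. The gene lies on chromosome 16 from 32608920 to 32632794. Tfrc measured 119.9, 110.0, 107 and 105.5 CPM across controls 1 to 4, a narrow range, against 197, 188, 176 and 96.8 CPM across knockout-labelled 1 to 4. Knockout-labelled 1 to 3 were the 3 highest libraries, and knockout-labelled 4 was the lowest of all 8.

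Tfrc did not pass with all 8 libraries (log2 fold change 0.57, SE 0.22, edgeR adjusted p = 0.897) or with the block (0.53, SE 0.17, adjusted p = 0.159). In numbers 1 to 3 it rose by 0.74 (SE 0.07, edgeR adjusted p = 0.000482), from 112 ± 6.92 CPM (SD, n = 3) to 187 ± 10.6 CPM (SD, n = 3), a ratio of 1.67. The paired ratios were 1.64, 1.71, 1.65 and 0.917. In the same libraries 12 genes of dividing cells summed to 355, 569 and 431 CPM for controls 1 to 3, against 1135, 1265 and 1182 CPM for knockout-labelled 1 to 3, with no overlap, and to 611 and 788 CPM in number 4. Their part in the values of Tfrc, and of Fth1, Hfe and Ncoa4 in the same libraries, was not tested. The erythroid list summed to at most 1.63 CPM in a library, and its part in the Tfrc values was not tested either.

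Ferroportin, Slc40a1, separated the library numbers more than any other member. The gene lies on chromosome 1 from 45908068 to 45926523. Slc40a1 measured 767, 527, 699.6 and 10.3 CPM across controls 1 to 4, against 836.5, 798, 788 and 18.5 CPM across knockout-labelled 1 to 4. Control 4 stood 64.2-fold below the mean of controls 1 to 3, and knockout-labelled 4 stood 43.7-fold below its own group, on 148 and 254 counts. Number 4 was selected for standing apart in earlier results, so these ratios are descriptions of single libraries with no test.

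Slc40a1 was higher in the labelled knockout of every pair, with ratios of 1.09, 1.51, 1.13 and 1.79, but did not pass. The log2 fold change was 0.28 (SE 1.23, edgeR adjusted p = 0.9999), 0.41 with the block (SE 0.13, adjusted p = 0.148) and 0.28 in numbers 1 to 3 (SE 0.13, adjusted p = 0.184). The 15 macrophage markers summed to 38400 CPM for control 4 and 54210 CPM for knockout-labelled 4, against 32146 to 42652 CPM in numbers 1 to 3. Adgre1 (F4/80) had 1588 and 1674 CPM for the number 4 libraries against 939 to 1357 CPM elsewhere, and Csf1r had 4464 and 5044 CPM against 2932 to 3937 CPM. The mannose receptor Mrc1 was lower there, at 135 and 327 CPM against 1059 to 1588 CPM. Cd163, the haemoglobin receptor, was lower as well, with 1.54 and 2.26 CPM against 43.0 to 54.3 CPM. The part of cell make-up in these values was not tested.

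Neither divalent metal transporter passed between genotypes. Slc11a1 (NRAMP1) sits in the phagosome membrane of macrophages and pumps metal out of the phagosome. Slc11a1 measured 716, 587, 723 and 251 CPM across controls 1 to 4, against 639, 596, 641 and 439 CPM across knockout-labelled 1 to 4, so both libraries numbered 4 were lowest in their group. Its log2 fold change was 0.02 (SE 0.33, edgeR adjusted p = 0.9999) and −0.11 (SE 0.09, adjusted p = 0.474) in numbers 1 to 3. Slc11a2 (DMT1), which carries iron out of the endosome after transferrin uptake, varied little. Over the 8 libraries it ran from 50.1 to 67.2 CPM, with overlapping groups and a log2 fold change of −0.07 (SE 0.13, 95% interval −0.36 to 0.22, edgeR adjusted p = 0.9999). The value was −0.10 in numbers 1 to 3 (SE 0.09, adjusted p = 0.494). Gene counts do not separate its isoforms with and without the iron-responsive element.

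**Figure D3:**
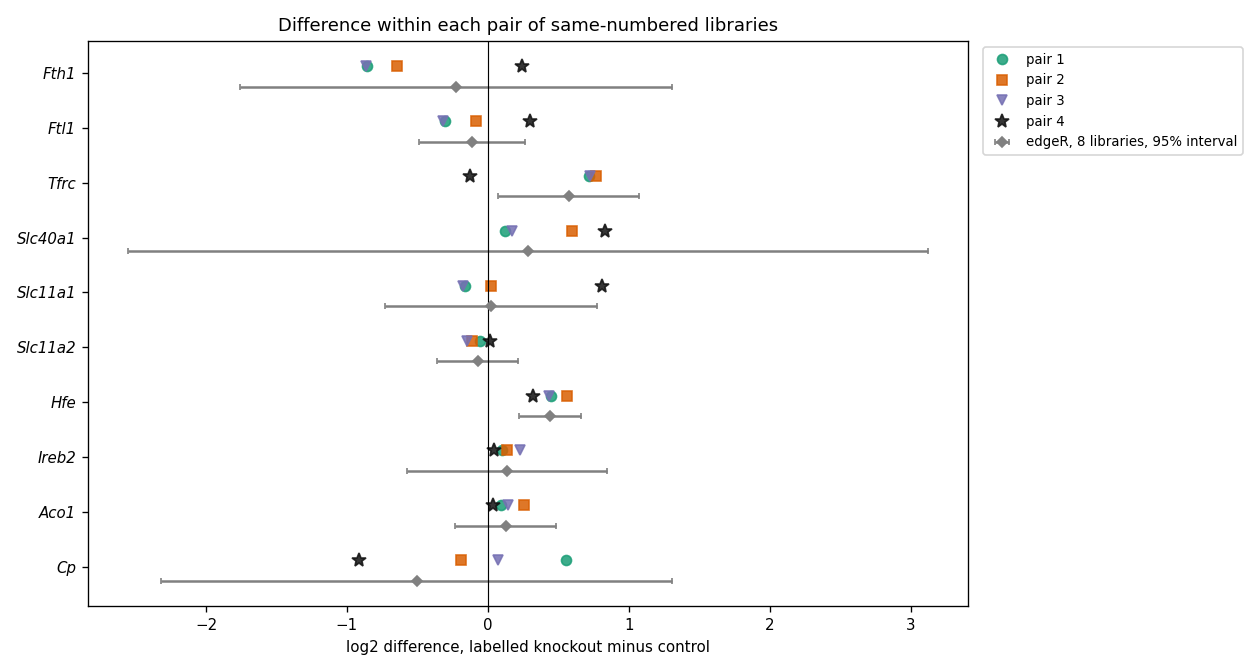
Log2 difference between labelled knockout and control within each pair of same-numbered libraries, for each member, with the edgeR estimate over 8 libraries and its 95% interval in grey. Hfe lies to the right of 0 in each pair (0.32 to 0.56), while Fth1 and Tfrc change side in pair 4.

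Hfe was the only member whose groups did not overlap over all 8 libraries, a separation met by 3.59% of the 12837 genes tested (2.32% with the labelled knockout higher). Hfe is a class I-like membrane protein that binds the transferrin receptor and takes part in iron sensing. The gene lies on chromosome 13 from 23702034 to 23710854. Hfe measured 144, 126, 139 and 142 CPM across controls 1 to 4, against 197, 185, 187 and 178 CPM across knockout-labelled 1 to 4. Every labelled knockout library was above every control, number 4 included.

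Hfe averaged 138 ± 8.33 CPM (SD, n = 4) among controls, against 187 ± 7.63 CPM (SD, n = 4) among knockout-labelled libraries. By an exact permutation test, two-sided and without pairing, p was 0.0286, which 4 against 4 libraries give any gene without overlap. The other 9 members gave 0.143 to 0.914. The log2 fold change was 0.44 (SE 0.10, 95% interval 0.22 to 0.66), with an edgeR adjusted p of 0.471 over all genes, so it did not pass. With the block Hfe rose (0.44, SE 0.06, edgeR adjusted p = 0.0385). With pair 1, 2 or 3 omitted the value stayed at 0.44, 0.41 and 0.44, but the call was lost (adjusted p of 0.201, 0.253 and 0.337). It also rose in numbers 1 to 3 alone (0.48, SE 0.07, edgeR adjusted p = 0.00222). DESeq2 called it over all 8 libraries as well (0.43, adjusted p = 6.12e-05).

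The genes of the iron regulatory proteins did not pass over 8 libraries, and in number 4 one stood low and the other high. Ireb2, which encodes IRP2, measured 103, 94.0, 89.4 and 49.1 CPM across controls 1 to 4, against 110.5, 103.3, 105 and 50.5 CPM across knockout-labelled 1 to 4. Control 4 was at 0.514 and knockout-labelled 4 at 0.475 of the mean of the other 3 libraries of its group. Aco1, which encodes IRP1 (cytosolic aconitase when it holds an iron-sulfur cluster), measured 75.1, 69.4, 74.8 and 101.7 CPM across controls, against 80.2, 83.0, 82.5 and 104.5 CPM across knockout-labelled libraries, highest in number 4 of each.

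Both were higher in the labelled knockout of all 4 pairs by small amounts, with ratios of 1.03 to 1.17 for Ireb2 and 1.03 to 1.20 for Aco1. The log2 fold changes were 0.14 (SE 0.31) and 0.13 (SE 0.16), each with an edgeR adjusted p of 0.9999. Without number 4 they were 0.15 (SE 0.07, adjusted p = 0.188) and 0.17 (SE 0.06, adjusted p = 0.0901). With the block added there, Aco1 just passed (0.17, SE 0.05, edgeR adjusted p = 0.0490) and Ireb2 did not (0.16, SE 0.05, adjusted p = 0.0559).

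Ceruloplasmin, Cp, a copper ferroxidase that helps load exported iron onto transferrin, was the least expressed member per kilobase in each library but control 4, where Slc40a1 and Ireb2 were lower. Cp measured 4.604, 7.03, 5.18 and 37.2 CPM across controls 1 to 4, against 6.82, 6.14, 5.45 and 19.7 CPM across knockout-labelled 1 to 4, from 87 to 532 counts. The libraries numbered 4 were highest in both groups. The log2 fold change was −0.50 (SE 0.78, edgeR adjusted p = 0.9999) over 8 libraries and 0.13 (SE 0.20, adjusted p = 0.71) in numbers 1 to 3, with overlap in both.

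Counted together, 0 of the 10 members passed between genotypes with edgeR over 8 libraries, where the share of all genes tested was 0%, and 2 had an unadjusted p under 0.05, as had 631 of the 12837 genes. DESeq2 called 1, Hfe, higher, against 1.37% of all genes called and 0.989% called higher, and limma-voom called 0. Fth1 and Cp were given no p-value by DESeq2, so they could not be called there. Without control 4 or without knockout-labelled 4, edgeR called 0 members, against 0.293% and 0.185% of genes. With the block 1 of 10 rose, Hfe, against 2.49% of genes called in either direction and 1.31% called higher. In numbers 1 to 3, 2 rose (Tfrc and Hfe) and 1 fell (Fth1), against 14.1% of genes called, 7.78% higher and 6.29% lower. There the groups did not overlap for 6 of the 10 members, against 34.6% of genes. With the block as well, 3 rose (Tfrc, Hfe and Aco1) and 2 fell (Fth1 and Ftl1), against 24.2% of genes, 12.3% higher and 11.9% lower. The median log2 fold change of the members was 0.07 over 8 libraries and 0.14 in numbers 1 to 3, beside −0.02 and −0.005 over all genes. In 4 of 4 pairs 4 members were higher (Slc40a1, Hfe, Ireb2 and Aco1) and 0 were lower, where 28.8% of genes kept 1 direction, 15.4% higher and 13.4% lower.

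**Figure D4:**
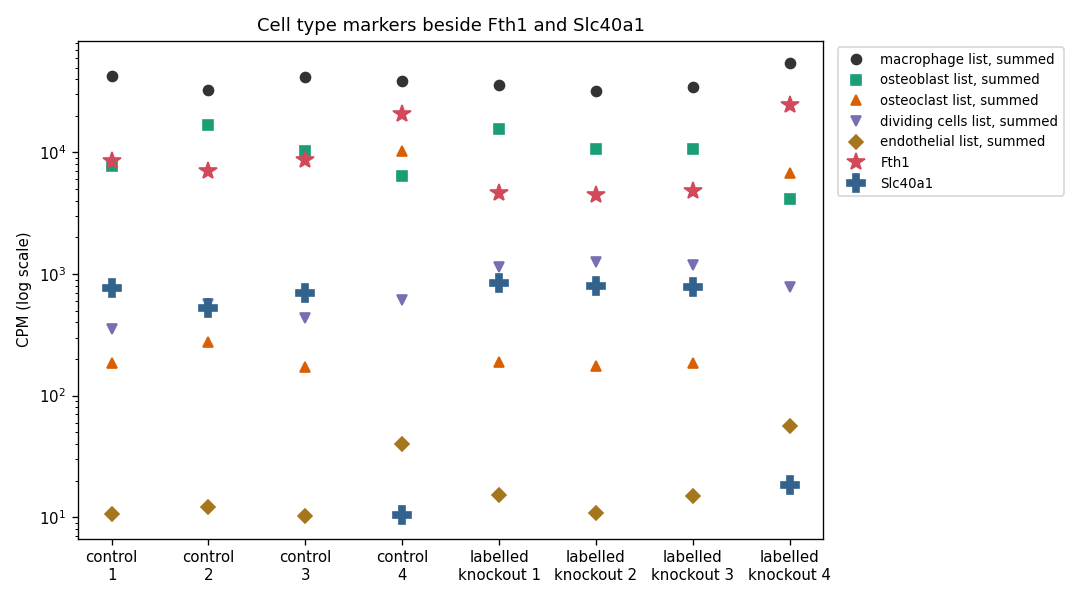
Summed CPM of 5 marker lists and the level of Fth1 and Slc40a1 in each library, on a log axis. In number 4 the osteoclast sum is at 10222 and 6748 CPM, Fth1 is at its highest and Slc40a1 at its lowest.

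Around the members, 77 further genes of iron and haem metabolism were taken from fixed lists, of which 76 were in the table and 61 were tested. With edgeR over 8 libraries 0 of the 61 passed and 3 had an unadjusted p under 0.05 (631 of 12837 over all genes), with a median log2 fold change of −0.05. DESeq2 called 1 of the 61, against 1.37% of all genes. With the block 1 of the 61 fell, against 2.49% of all genes called in either direction. In numbers 1 to 3, 9 rose and 4 fell of the 61, or 13 in all, against 14.1% of all genes. The hormone hepcidin (Hamp) had at most 1 count in a library, and mitochondrial ferritin (Ftmt) had 0.

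Of 6 genes of ferritin turnover and iron delivery tested, 1 rose and 0 fell in numbers 1 to 3, against 7.78% and 6.29% of all genes. Ncoa4, the receptor that takes ferritin to the lysosome for breakdown, measured 108, 96.9, 103 and 113 CPM across controls 1 to 4, against 189, 174, 176 and 67.2 CPM across knockout-labelled 1 to 4. It had the pattern of Tfrc, with knockout-labelled 1 to 3 highest and knockout-labelled 4 lowest. The log2 fold change was 0.53 (SE 0.30, edgeR adjusted p = 0.9999) over 8 libraries, and in numbers 1 to 3 it rose by 0.81 (SE 0.07, edgeR adjusted p = 0.000237). The iron chaperones Pcbp1 (−0.15, SE 0.09) and Pcbp2 (−0.19, SE 0.11), which deliver iron to ferritin, did not pass over 8 libraries (edgeR adjusted p = 0.9999 each). Nor did they pass in numbers 1 to 3 (adjusted p of 0.156 and 0.0523), where the block left Pcbp1 at 0.0782 and Pcbp2 passed (−0.21, SE 0.05, edgeR adjusted p = 0.0149).

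Of 11 uptake genes tested, 4 rose and 2 fell in numbers 1 to 3, where 7.78% of all genes were called higher and 6.29% lower. Slc39a8 (ZIP8), a zinc and iron importer, measured 6.30, 5.62, 6.17 and 4.55 CPM across controls, against 14.9, 10.7, 11.6 and 3.35 CPM across knockout-labelled libraries, and rose by 1.04 in numbers 1 to 3 (SE 0.16, edgeR adjusted p = 0.00329). Over 8 libraries it was at 0.84 (SE 0.41, adjusted p = 0.9999). Snx3 (0.27, SE 0.06) and Exoc6 (0.40, SE 0.06), which act in transferrin receptor recycling, also rose there (edgeR adjusted p of 0.0130 and 0.00388). Steap2, a metalloreductase, fell with the block over 8 libraries (−0.56, SE 0.09, edgeR adjusted p = 0.0412), though 0 of the 61 genes passed with number 1, 2 or 3 left out, and in numbers 1 to 3 (−0.62, SE 0.13, adjusted p = 0.0166). Steap2 measured 52.1, 66.5, 62.5 and 7.90 CPM across controls 1 to 4, against 33.2, 45.3, 38.7 and 6.77 CPM across knockout-labelled 1 to 4. Transferrin itself (Trf) ranged over 459 to 924 CPM among controls and 575 to 1581 CPM among knockout-labelled libraries, highest in number 4, and did not pass (0.44, SE 0.40, edgeR adjusted p = 0.9999, and 0.131 in numbers 1 to 3). With the block in numbers 1 to 3 Trf rose (0.20, SE 0.06, edgeR adjusted p = 0.0273). Tfr2 (−0.47, SE 0.33) did not pass either and stood at or under 2.47 CPM.

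Of 11 haem recovery genes tested, 2 rose in numbers 1 to 3, against 7.78% of all genes. Heme oxygenase 1 (Hmox1), which frees iron from haem, ranged over 302 to 490 CPM among controls and 364 to 491 CPM among knockout-labelled libraries (0.07, SE 0.18, edgeR adjusted p = 0.9999). Cd163 (0.04, SE 1.04) and the haem transporter Slc48a1 (0.10, SE 0.23) did not pass. Their edgeR adjusted p in numbers 1 to 3 was 0.58 for Hmox1, 0.87 for Cd163 and 0.745 for Slc48a1. Blvra, biliverdin reductase, was at 0.33 (SE 0.12, edgeR adjusted p = 0.837) and rose in numbers 1 to 3 (0.39, SE 0.10, adjusted p = 0.0385). Haptoglobin (Hp) with the block was at 0.55 over 8 libraries (SE 0.14, adjusted p = 0.092), and Flvcr1, a haem exporter, at −0.20 (SE 0.06, adjusted p = 0.143). With the block in numbers 1 to 3 alone Hp rose (0.77, SE 0.18, edgeR adjusted p = 0.0116), and Flvcr1 did not pass (adjusted p = 0.0504).

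Of 20 mitochondrial iron and iron-sulfur genes tested, 4 had a positive log2 fold change over 8 libraries. In numbers 1 to 3, 7 did, and 1 rose and 1 fell, against 7.78% and 6.29% of all genes. The mitochondrial iron importer Slc25a37 was the gene that fell there (−0.35, SE 0.08, edgeR adjusted p = 0.0262). With the block over 8 libraries Cisd1 (−0.35, SE 0.10, edgeR adjusted p = 0.116) and the scaffold Iscu (−0.18, SE 0.05, adjusted p = 0.13) did not pass. Blocked in numbers 1 to 3 alone, Iscu fell (−0.19, SE 0.05, edgeR adjusted p = 0.0219). Of 11 haem synthesis genes tested, 1 rose and 1 fell in numbers 1 to 3, against 7.78% and 6.29% of all genes. Fech, which inserts iron into haem, rose (0.30, SE 0.07, edgeR adjusted p = 0.0173) and the transporter Abcb10 fell (−0.44, SE 0.08, adjusted p = 0.00644). Over 8 libraries Abcb10 was at −0.33 (SE 0.17, adjusted p = 0.9999).

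**Figure D5:**
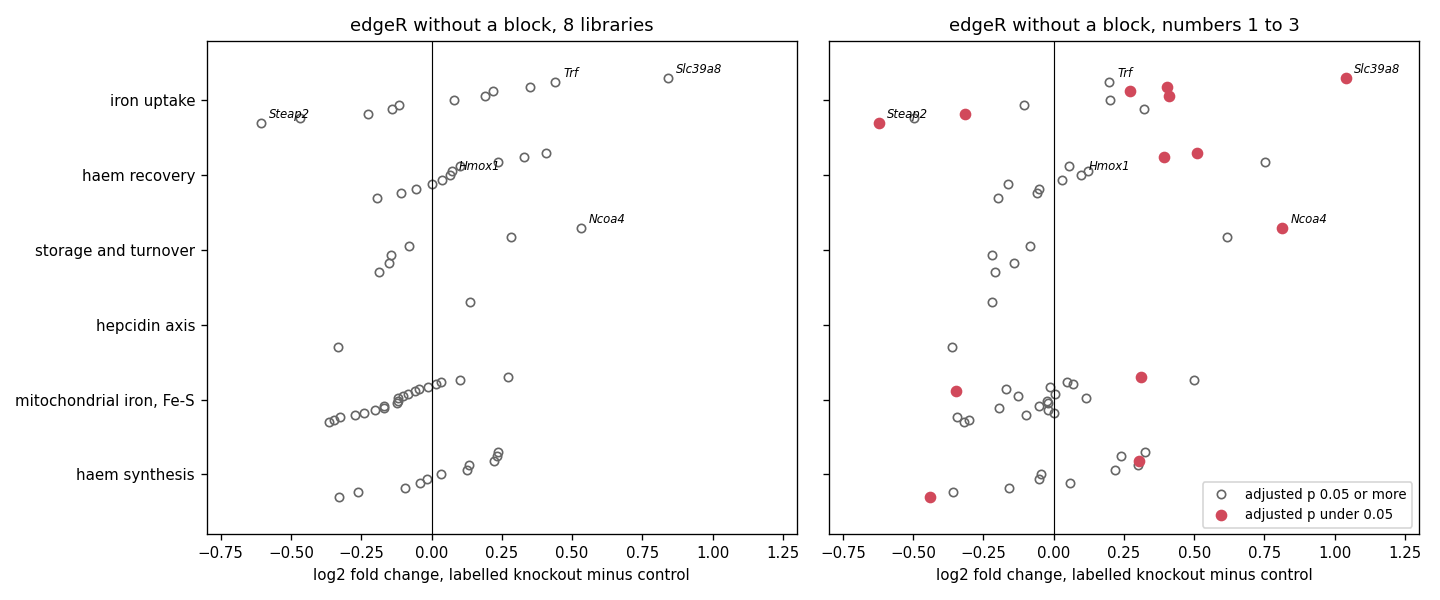
Log2 fold change between labelled knockout and control of 61 further iron and haem genes by list, over 8 libraries (left) and numbers 1 to 3 (right), from edgeR without a block. Filled points have an adjusted p under 0.05, of which there are 0 on the left and 13 on the right, with Slc39a8 (1.04) and Ncoa4 (0.81) highest.

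Genes most like a member were taken by Pearson's r of log2 CPM over the 6 libraries numbered 1 to 3, among 11516 genes whose log2 CPM averaged 1 or more. With 6 libraries that share genotype and number, high values are common, and 352 genes had an r over 0.95 with Fth1 and 381 with Tfrc. Nearest to Fth1 were Igsf8 (0.999), Mogs (0.999) and Eif3h (0.998). For Ftl1 they were Bin2 (0.997), Esd (0.996) and Nqo1 (0.996), with 140 genes over 0.95. For Tfrc they were Zc3h12d (0.999), Prps2 (0.997) and Cd22 (0.996), and for Slc40a1 Mospd3 (0.998), Tmem94 (0.998) and Ikbke (0.997), with 133 genes over 0.95. These values are descriptions with no test. The likeness to Slc40a1 did not carry to number 4, where Slc40a1 was lowest, for any of its 3 nearest genes. Ikbke had 239 and 311 CPM there, against 70.2 to 94.7 CPM in numbers 1 to 3. Mospd3 had 60.3 and 63.1 CPM there, against 27.3 to 36.2 CPM. Tmem94 had 55.1 and 55.9 CPM there, within the 46.4 to 57.2 CPM of numbers 1 to 3. For the other members the genes were mixed in number 4. Zc3h12d was higher there, at 37.9 and 29.6 CPM against 11.2 to 19.5 CPM, while Tfrc was lowest. Prps2, at 34.4 and 24.0 CPM against 38.6 to 54.6 CPM, was lowest as Tfrc was. Igsf8, at 192 and 190 CPM against 118 to 158 CPM, was highest as Fth1 was.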

How the data were processed

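Polyadenylated RNA of 8 libraries was measured. The authors deposited raw read counts for each gene symbol. The submitters' processing notes name STAR 2.7.11b, featureCounts 2 and the build mm10 (GRCm38), without giving their settings. Annotation, strand setting and treatment of reads with several alignments are not given in the sources used here.

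Groups and numbers came from the sample titles. With edgeR 4.0.16 in R 4.3.3, filterByExpr left 12837 genes, TMM scaling and the robust quasi-likelihood F test of genotype alone were applied, and p-values were adjusted by Benjamini-Hochberg over all genes tested (threshold 0.05). CPM used the TMM-scaled library sizes, and log2 CPM a prior count of 2. The code was tested on simulated data. Alternatives were other scaling factors, DESeq2 1.42.0, limma-voom 3.58.1, no filter, libraries left out and the number as a block. After group means were removed, same-numbered libraries correlated at 0.46 to 0.829 over all 8, overlapping the −0.757 to 0.572 of unlike numbers (0.161 to 0.376 among numbers 1 to 3, against −0.255 to −0.0234 for unlike numbers), and every same-numbered pair passed 0.1, so numbers are used as pairs on the strength of these values, with no label saying so. With group means removed, positive values for same numbers force negative values among unlike numbers, so the contrast between them is not separate evidence of pairing. The pairing was thus taken from the same data as the blocked fits. Replicates differed beyond sampling noise (chi-square per degree of freedom 8.56 to 307), so each counted as 1 sample.

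Gene positions and principal transcripts came from GENCODE M21 (GRCm38). The length per kilobase was set after the annotation was read. The members, lists, named genes and the setting apart of number 4 were chosen with earlier results of these data known. The genes named are the 10 members, Sphk2, up to 4 iron genes per direction with the smallest unadjusted p without and with the block, Hmox1, Trf, Ncoa4, Cd163 and Slc48a1, and the 3 genes most like each of 4 members. Others (Adgre1, Csf1r, Lyz2, Mrc1, Mmp9, Nfatc1, Spp1, Hamp, Ftmt, Slc25a37, Fech, Steap4, Lcn2) were chosen after their values were seen. A result for a further gene of the lists is not reported here.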

Additional observations from a re-analysis of the deposited data

Results flagged for a closer look

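Among the 20 groups of 4 libraries examined for the members, 7 held a library far from the other 3 (a gap to its neighbour above Dixon's 95% critical value), and all 7 were libraries numbered 4. Chance flags about 1 in 20 groups, but these groups share the same 8 libraries and number 4 was already known to stand apart, so the count is a description. Fth1 was at 20566.5 CPM in control 4 and 24387 CPM in knockout-labelled 4. Cp was at 37.2 CPM in control 4 and 19.7 CPM in knockout-labelled 4, each far above the rest of its group. In knockout-labelled 4, Slc40a1 (18.5 CPM) and Ireb2 (50.5 CPM) were far below, and Aco1 (104.5 CPM) was above. Slc40a1 in control 4, at 10.3 CPM, did not pass this criterion because controls 1 to 3 were more spread.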

How the results depend on the processing

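Over 8 libraries without a block, 0 genes, 0 members and 0 other iron genes passed with edgeR. The counts were 176, 1 and 1 with DESeq2, 319, 1 and 1 with the replicate block, 1817, 3 and 13 in numbers 1 to 3 and 3132, 5 and 21 in numbers 1 to 3 with the replicate block. They are out of 10 members and 61 other iron genes tested. In the same order, the shares of all genes called were 1.37%, 2.49%, 14.1% and 24.2%. The DESeq2 count of members leaves out Fth1 and Cp, which had no p-value in that fit. Leaving out 1 library, or number 1, 2 or 3 from both groups with the block, gave 0 to 38 genes, 0 to 0 members and 0 to 1 other iron genes, with 38 genes without control 4 and 24 without knockout-labelled 4. Other scaling factors, limma-voom and no filter gave 0 of each. The paired analysis assumes that numbers pair libraries.

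Hfe kept its direction in 19 of 19 alternatives, as did Tfrc, Ftl1, Slc11a2 and Aco1. Fth1 ran from −1.27 to 0.24 when libraries were left out, with 0.24 without control 4 and 0.0016 and 0.01 without knockout-labelled 1 and 2. Slc40a1 ran from −0.12 (without control 4) to 0.69, Ireb2 from −0.053 (without control 4) to 0.34, Cp from −1.13 to 0.75 (without control 4) and Slc11a1 from −0.22 (without control 4) to 0.16 (0.22 with number 3 left out of the blocked pairs), with −0.03 without knockout-labelled 1 and −0.03 without knockout-labelled 3. In numbers 1 to 3 Slc11a1 was at −0.11 (−0.10 with the replicate block) and Cp at 0.13 (0.14 with it). The cause was not tested. The median SE over all genes was 0.25 for 8 libraries, 0.10 once blocked and 0.11 for numbers 1 to 3, so counts of 0 do not show that genes were unchanged.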

Other observations

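The mRNAs of 3 genes, chosen after their values were seen and given with no test, were higher in number 4 of both groups than in any other library. Other genes of the lists shared this, among them Trf, Hmox1 and Slc25a37. Others did not, among them the metalloreductase Steap2, which was lower there. Lcn2 (lipocalin 2), which binds bacterial iron carriers, stood at 20.1 CPM in control 4 and 21.2 CPM in knockout-labelled 4 and at most 0.635 CPM elsewhere. The metalloreductase Steap4 stood at 21.9 and 9.47 CPM in the same libraries and at most 0.34 CPM elsewhere. Haptoglobin (Hp), which captures free haemoglobin, stood at 101 and 113 CPM there against 2.68 to 8.75 CPM elsewhere. Lcn2 and Steap4 were removed by the filter on low counts, so they are in no comparison between genotypes.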
